A study of Mus musculus with 4 samples.

Results

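A stretch of mouse chromosome 10 beyond the 5′ end of Adarb1, the gene that encodes the RNA-editing enzyme ADAR2, was examined gene by gene in liver RNA of HFD-WT and HFD-KO mice. The members were the genes whose listed start lies between 81000000 and 82600000 (GRCm39) and that had at least 1 read summed over the 4 libraries. The table lists 55 genes in this window of 1.6 Mb, and 51 of them were members, out of 25655 genes in the whole table. The other 4 (4930442H23Rik, Nmrk2, 4932415D10Rik and Gm1553) had no reads in any library. The window was selected on measured values, because Gm3055 and Gm32687 had no reads in HFD-KO, so values of the members in HFD-KO against HFD-WT are given as a description. Where calls of a test across all genes are counted among the members, they stand only beside the share over all genes.

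The male mice were ADAR2+/+/GluR-B R/R (HFD-WT) or ADAR2-/-/GluR-B R/R (HFD-KO), and they received the high-fat diet (HFD) for 12 weeks from 5 weeks of age. Both groups carried the GluR-B R/R allele, which supplies the edited form of a glutamate receptor subunit whose editing ADAR2 otherwise performs, and all mice descended from heterozygote intercrosses on a B6129S background. Each group had 2 liver libraries, so p-values measure the spread between these libraries. The study names more mice per group than there are libraries and does not say how mice were assigned to libraries, so that spread may be partly technical. Adarb1 (77126560 to 77254104, minus strand) ends 3.75 Mb before the window on the same chromosome, so the genotype at Adarb1 and the genotype at the window cannot be told apart in this design.

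The label of a zinc finger cluster holds for part of the window only. C2H2 zinc finger proteins carry repeated units in which 2 cysteines and 2 histidines hold a zinc ion, and neighbouring units read neighbouring bases of DNA. Those that also carry a KRAB domain recruit the co-repressor TRIM28 (KAP1) and the histone methyltransferase SETDB1, and in the mouse they silence many transposable elements. Their genes lie in tandem arrays that grew by duplication, so near copies are common.

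By the letters of their translated transcripts, 11 members encode at least 10 C2H2 motifs, from 10 to 24, and all 11 also hold letters typical of a KRAB domain. From Gm10778 to Gm4924 these genes span 774 kb inside the window. The members Zfr2 and BC025920, with 3 motifs each, lie outside that span, which makes 13 zinc finger members. Of the other members, 7 are predicted genes and 31 are other named genes, among them Eef2, the most abundant member.

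The array contains a duplicated block. Gm10778, Zfp433 and Gm3055 are followed by Gm4767, Gm32687 and Zfp781, in the same order and on the same strands, further along. The distance between starts was 163 kb for Gm10778 and Gm4767, 159.1 kb for Zfp433 and Gm32687 and 159.1 kb for Gm3055 and Zfp781. In the GENCODE M21 transcripts, Gm3055 and Zfp781 had 4063 of 4067 bases identical, Gm32687 and Zfp433 2376 of 2379, and Gm4767 and Gm10778 4722 of 4725. Both genes of a pair have the same number of motifs, which is 24, 17 and 14 for these 3 pairs.

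The first linked finger of 8 members is printed to show how alike the copies are, as 84 bases of the coding strand with the codons of the 2 cysteines and 2 histidines in capitals. The 2 genes of each pair are identical over this finger.
Gm3055: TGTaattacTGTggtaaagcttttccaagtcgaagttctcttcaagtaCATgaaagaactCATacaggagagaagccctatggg
Zfp781: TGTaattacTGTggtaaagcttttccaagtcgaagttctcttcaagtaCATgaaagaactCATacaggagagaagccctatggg
BC024063: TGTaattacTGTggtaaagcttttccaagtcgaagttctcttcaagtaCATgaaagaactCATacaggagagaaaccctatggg
Gm32687: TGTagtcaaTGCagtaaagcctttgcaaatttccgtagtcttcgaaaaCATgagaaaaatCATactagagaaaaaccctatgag
Zfp433: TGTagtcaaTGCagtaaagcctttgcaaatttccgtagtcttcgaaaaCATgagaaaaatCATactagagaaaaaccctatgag
Gm4767: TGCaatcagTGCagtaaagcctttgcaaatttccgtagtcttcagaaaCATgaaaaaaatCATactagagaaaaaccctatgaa
Gm10778: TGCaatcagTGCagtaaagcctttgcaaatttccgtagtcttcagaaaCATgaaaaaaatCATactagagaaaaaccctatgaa
Zfp938: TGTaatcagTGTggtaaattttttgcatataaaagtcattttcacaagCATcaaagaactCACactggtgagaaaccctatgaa
BC024063 had 83 of 84 bases in common with Gm3055 over this finger, while Zfp938 had 61 of 84.

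Few bases set the pairs apart. Counted from the first base of the longest transcript, Gm3055 and Zfp781 differed at C1397T, A1812T, T3777G and T3908A, with the base of Gm3055 first. Gm32687 and Zfp433 differed at A392G, A683G and T1349C, and Gm4767 and Gm10778 at C39A, G2716C and T3620A, positions being those of the first-named gene. The substitutions C1397T, A1812T, A683G and T1349C lie within linked fingers, and 2 of them are printed with the differing base in capitals, to show what a read must cover to tell the copies apart.
Gm3055 around 1397: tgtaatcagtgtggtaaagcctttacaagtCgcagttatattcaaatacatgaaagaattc
Zfp781 around 1397: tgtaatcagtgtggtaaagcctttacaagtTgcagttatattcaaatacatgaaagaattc
Gm32687 around 1349: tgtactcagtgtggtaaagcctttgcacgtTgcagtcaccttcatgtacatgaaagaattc
Zfp433 around 1349: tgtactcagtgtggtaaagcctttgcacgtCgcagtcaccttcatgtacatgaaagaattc

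Copies this close share most stretches of read length. The share of 100-base transcript stretches that also occur in another gene was 87.0% for Gm3055, 92.4% for Zfp781, 86.8% for Gm32687, 75.5% for Zfp433, 94.8% for Gm4767 and 94.6% for Gm10778. It was 34.2% for BC024063, and 0 for Zfp873, AU041133, Zfp938 and Gm4924. Reads were sequenced as pairs of 100 bases, and how reads that match several genes were counted is not given in the sources used here. Counts of the 6 paired genes are therefore uncertain one by one.

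**Figure D1:**
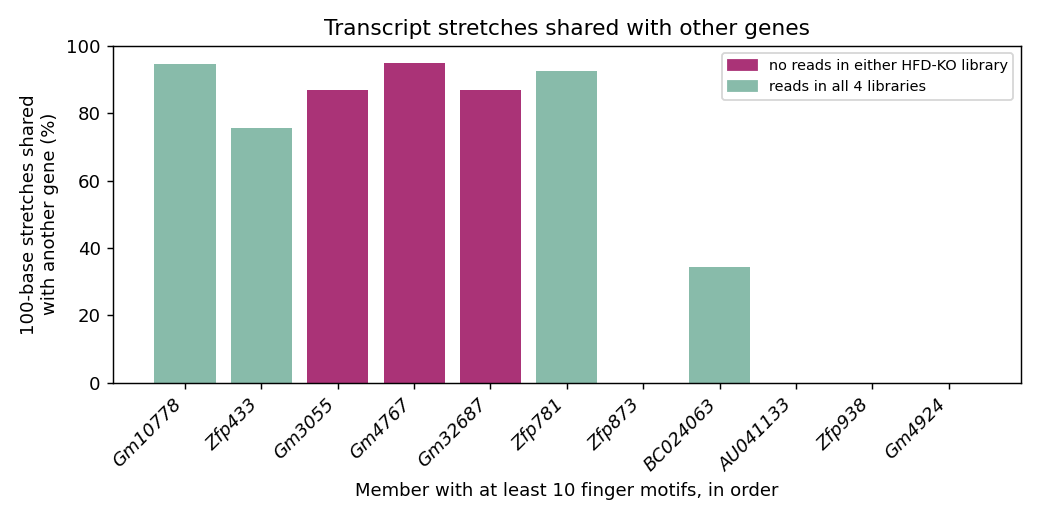
Share of 100-base transcript stretches (%, vertical axis) that occur exactly in another gene, for the 11 members with at least 10 C2H2 motifs in their order on chromosome 10. The 3 purple bars are genes with no reads in either HFD-KO library (Gm3055 87.0%, Gm4767 94.8%, Gm32687 86.8%), and the members downstream of Zfp781 are at 0 except BC024063 at 34.2%.

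The promoters of Gm3055 and Zfp781 (300 bases, RefSeq on GRCm38.p6) were identical at all 300 bases. From their annotated starts, those of Zfp433 and Gm32687 were 74.6% identical and those of Gm10778 and Gm4767 47.8%. In these pairs the annotated starts lie at different points of the copied sequence. The 300 bases therefore cover shifted stretches, and these shares do not measure how far the copies differ. The sequence is printed once for both genes, at chr10:81771125-81771424 for Gm3055 and chr10:81930463-81930762 for Zfp781, both on the minus strand, with the letters CCAAT and GGGCGG in capitals.
Gm3055 and Zfp781 promoter: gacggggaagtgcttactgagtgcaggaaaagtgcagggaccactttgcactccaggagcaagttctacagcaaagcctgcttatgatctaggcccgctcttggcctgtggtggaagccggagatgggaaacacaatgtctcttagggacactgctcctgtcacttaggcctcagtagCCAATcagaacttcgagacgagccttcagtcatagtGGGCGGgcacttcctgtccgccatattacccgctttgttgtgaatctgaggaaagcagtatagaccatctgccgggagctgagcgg
Searched on both strands, CCAAT occurs in 37.4% and GGGCGG in 35.7% of the 32851 promoters of the same length. A match in letters is a description and not a binding site. Among members, 26 of 59 promoters held CCAAT, 34 of 59 held GGGCGG and 1 of 59 held TATAAA, the last of which occurs in 13.6% of all promoters. The promoters cover 42 of the 51 members, some with more than 1 start.

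The libraries held between 24480798 and 28691330 counted reads. A level of 3 reads was taken as the most that a count of 0 allows by counting error. It corresponds to between 0.104 and 0.126 CPM (the read count scaled to library size, here by the TMM method). Reads on Adarb1 were 454 and 545 in HFD-WT and 164 and 228 in HFD-KO, a log2 fold change of -1.17 ± 0.20 (SE) with an adjusted p of 0.159 by edgeR's quasi-likelihood test. The count is a sum over the whole gene and does not show which exons it came from. All 7 hepatocyte markers were detected, with a summed level of 75396 to 75961 CPM in HFD-WT and 76541 to 91420 CPM in HFD-KO. Of 6 B and plasma cell markers all were detected, and their sum was 122 CPM in HFD-KO replicate 1 against 14.5 to 17.9 CPM in the other 3 libraries. The 6 Kupffer cell markers summed to 223 and 287 CPM in HFD-WT and to 177 CPM in both HFD-KO libraries. The sums of 5 stellate cell markers (276 and 311 CPM against 243 and 181 CPM) and of 5 cholangiocyte markers (71.5 and 90.4 CPM against 59.4 and 50.02 CPM) were likewise lower in both HFD-KO libraries. The 4 T cell markers summed to 5.81 CPM in HFD-KO replicate 1 and to 1.21 to 2.25 CPM in the others. For 5 endothelial markers the groups overlapped, with sums of 183 and 202 CPM in HFD-WT and 177 and 194 CPM in HFD-KO. For 5 erythroid markers the sums were higher in HFD-KO, at 810 and 1146 CPM against 757 and 600 CPM in HFD-WT. The part of these cells in the members' values was not tested.

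Gm3055 had 30 and 16 reads in HFD-WT and 0 and 0 in HFD-KO. Gm32687 had 57 and 32 reads in HFD-WT and 0 and 0 in HFD-KO. Gm4767 had 5 and 0 reads in HFD-WT and 0 and 0 in HFD-KO. These 3 genes stand next to each other in the table, from 81578655 to 81716915 (138 kb), with no listed gene between them.

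On the CPM scale Gm3055 was at 1.04 and 0.581 in HFD-WT, and the mean of 0.808 was at least 6.44-fold higher than a level of 3 reads in an HFD-KO library. Gm32687 was at 1.97 and 1.16 CPM in HFD-WT, and its mean of 1.57 was at least 12.5-fold higher by the same measure. With HFD-WT replicate 2 as the only HFD-WT library, these least folds were 4.64 and 9.28. Gm4767 was too low in both groups for a fold. No reads were counted for these 3 genes in either HFD-KO library, which allows up to 0.114 and 0.126 CPM in the 2 libraries by counting error alone.

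Genes with all their reads in 1 group were rare in the whole table. Of 14488 genes with at least 10 reads in all, 22 (0.152%) had this pattern, and Gm32687 with 89 reads and Gm3055 with 46 reads had the most reads among them. As the window was chosen for these 2 genes, nothing is read from their place in that list. In the window, 4 further members had all reads in 1 group, each with fewer than 10 reads. They were Atcay with 1 read, Celf5 with 2, Gm4767 with 5 and Gm47573 with 8, the last of which had 0 and 0 reads in HFD-WT and 6 and 2 in HFD-KO.

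The copies of Gm3055 and Gm32687 showed the opposite order of the groups, while the copy of Gm4767 did not separate them. Zfp781, the copy of Gm3055, had 7 and 9 reads in HFD-WT and 31 and 13 in HFD-KO. Zfp433, the copy of Gm32687, had 21 and 32 reads in HFD-WT and 44 and 38 in HFD-KO. For both genes each HFD-KO library lay above each HFD-WT library.

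The fitted log2 fold change was 1.60 ± 0.55 (SE) for Zfp781 and 0.79 ± 0.35 for Zfp433. That of Zfp781 was 0.93 without HFD-KO replicate 1, the library with 31 of its reads. Gm10778, the copy of Gm4767, had 63 and 47 reads in HFD-WT and 50 and 49 in HFD-KO, and the groups overlapped.

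**Figure D2:**
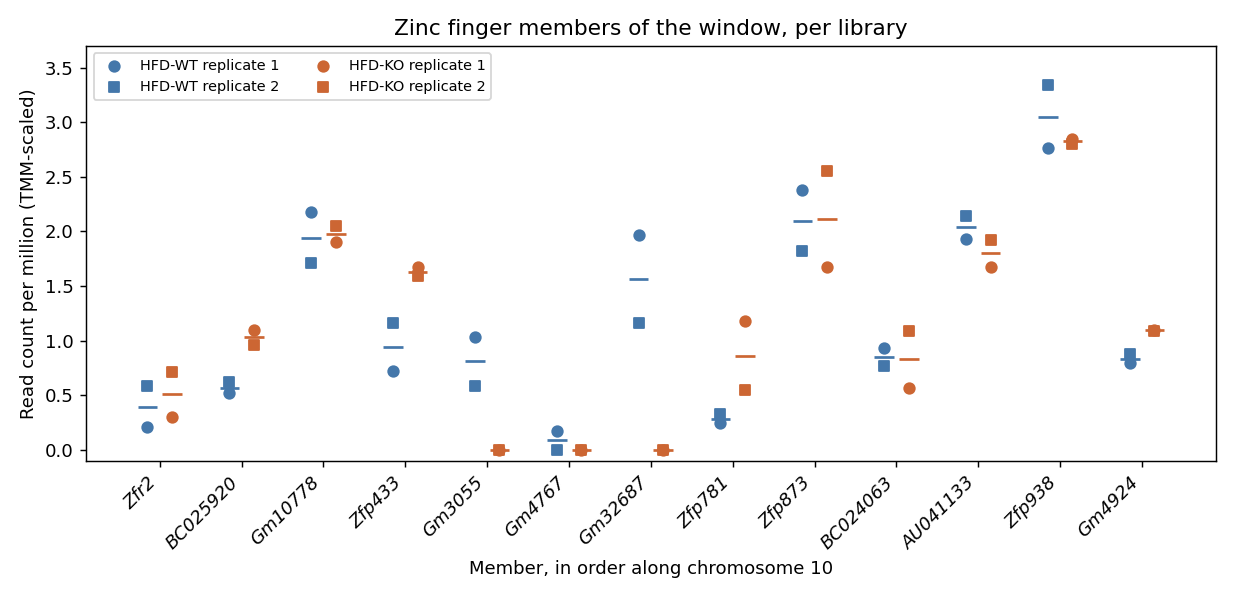
CPM (TMM-scaled, vertical axis) of the 13 zinc finger members in their order on chromosome 10, with 1 point per library (circle replicate 1, square replicate 2), HFD-WT in blue, HFD-KO in orange and the group mean as a line. Gm3055, Gm4767 and Gm32687 sit at 0 in both HFD-KO libraries, and Zfp433 and Zfp781 on either side of them have HFD-KO above HFD-WT.

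Because reads could be split between copies, each pair was also summed. Gm3055 and Zfp781 together had 37 and 25 reads in HFD-WT and 31 and 13 in HFD-KO. In CPM the pair was at 1.28 and 0.909 in HFD-WT and at 1.18 and 0.544 in HFD-KO, so the groups overlapped, with a ratio of means of 0.788. The sum of this pair thus did not separate the groups, although each of its genes did.

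Gm32687 and Zfp433 together had 78 and 64 reads in HFD-WT and 44 and 38 in HFD-KO. Their sum was 2.69 and 2.33 CPM in HFD-WT and 1.67 and 1.59 CPM in HFD-KO, with no overlap and a ratio of means of 0.650. Gm4767 and Gm10778 together had 68 and 47 reads in HFD-WT and 50 and 49 in HFD-KO, with overlapping groups and a ratio of 0.974. Summed over all 6 genes, the libraries had 183 and 136 reads in HFD-WT and 125 and 100 in HFD-KO. The 6 genes together were at 6.32 and 4.94 CPM in HFD-WT and 4.75 and 4.19 CPM in HFD-KO, with no overlap and a ratio of 0.793.

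**Figure D3:**
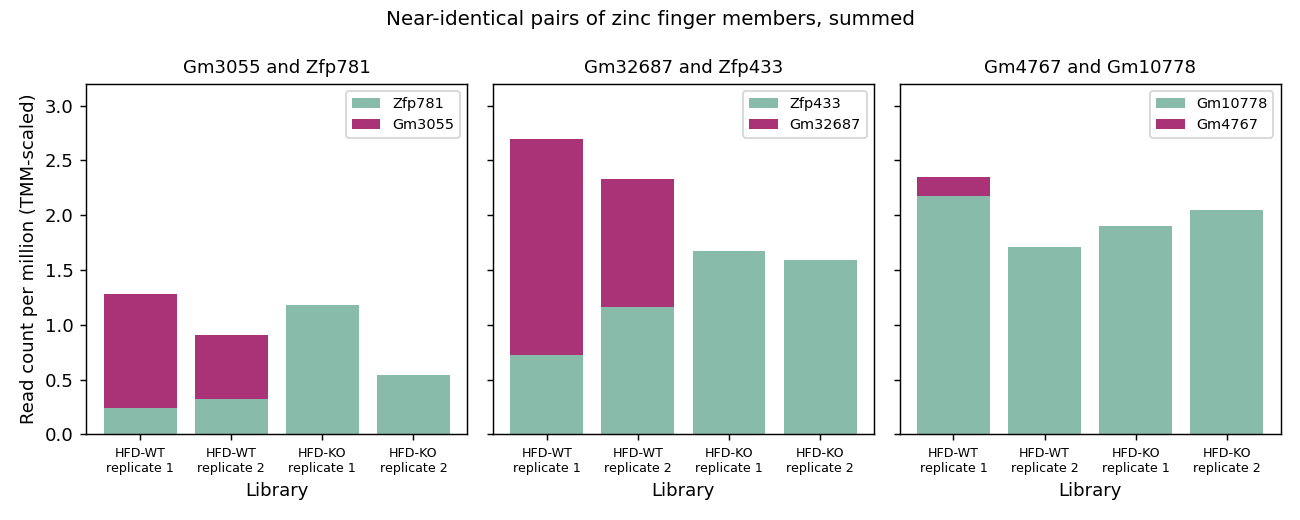
CPM (TMM-scaled, vertical axis) of each near-identical pair in the 4 libraries, stacked, with the gene that has no reads in HFD-KO in purple and its copy in green. The purple part is present in HFD-WT for Gm3055 and Gm32687 and missing in HFD-KO, and the whole bars overlap between groups in the left and right panels but not for Gm32687 and Zfp433 in the middle.

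The 5 array members outside the duplicated block had log2 fold changes between -0.18 and 0.39. Zfp938, the highest of the array per length, with a mean of 1.28 RPKM (reads scaled by gene length and library size), had 80 and 92 reads in HFD-WT and 75 and 67 in HFD-KO. Zfp873 had 69 and 50 reads in HFD-WT and 44 and 61 in HFD-KO. Both genes overlapped between groups, with log2 fold changes of -0.11 ± 0.22 (SE) and 0.00 ± 0.31.

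AU041133 had 56 and 59 reads in HFD-WT and 44 and 46 in HFD-KO, with the HFD-KO libraries just below the HFD-WT libraries (log2 fold change -0.18 ± 0.26, SE). Gm4924 had 23 and 24 reads in HFD-WT and 29 and 26 in HFD-KO, with HFD-KO above HFD-WT (0.39 ± 0.34). BC024063, which shares part of its transcript with Gm3055 and Zfp781, had 27 and 21 reads in HFD-WT and 15 and 26 in HFD-KO, with overlapping groups. All 3 differences were smaller than 2 standard errors.

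Outside the array, BC025920 had 15 and 17 reads in HFD-WT and 29 and 23 in HFD-KO, with HFD-KO above HFD-WT (log2 fold change 0.86 ± 0.37, SE). Zfr2, which encodes a zinc finger protein of the ZFR family of RNA-binding proteins, had 6 and 16 reads in HFD-WT and 8 and 17 in HFD-KO. The 2 libraries of each group differed more for Zfr2 than the groups did.

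As a whole the zinc finger members stayed at a low level. The mean RPKM of the 11 array genes ranged from 0.0085 for Gm4767 to 1.28 for Zfp938. Summed over the 13 zinc finger members, the level was 15.8 and 15.1 CPM in HFD-WT and 14.01 and 15.3 CPM in HFD-KO, with overlapping groups and a ratio of means of 0.948. Without Gm3055, Gm4767 and Gm32687, the other 8 array genes summed to 11.9 and 12.1 CPM in HFD-WT and 12.6 and 13.6 CPM in HFD-KO, a ratio of 1.09. The 396 Zfp genes elsewhere in the genome had a ratio of 1.06, from 2846 ± 64.0 CPM (SD, n = 2) in HFD-WT to 3023 ± 72.5 CPM (SD, n = 2) in HFD-KO. Liver tissue was sequenced whole, so fewer cells of a type and less RNA per cell cannot be told apart in any of these values.

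Of the 51 members, 42 passed edgeR's filter on low counts, among them 12 zinc finger, 2 predicted and 28 other named genes. The 9 that did not pass had between 1 and 29 reads in all. Their names are Atcay, 4930404N11Rik, Gm48552, Celf5, Gm4767, Gm33378, Gm47572, Gm47573 and Glt8d2. Gm47572, with 29 reads, had 15 and 7 in HFD-WT and 3 and 4 in HFD-KO, and Gm33378 had 8 and 4 in HFD-WT and 2 and 2 in HFD-KO. Both had HFD-KO below HFD-WT, and their HFD-KO counts were only 2 to 4 reads per library. In HFD-WT, Gm47572 was at 0.518 and 0.254 CPM and Gm33378 at 0.276 and 0.145 CPM.

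At an unadjusted p under 0.05, 3 members were higher in HFD-KO (Dapk3, Tle2 and Zfp781) against 551 of 12967 genes in all (4.25%), and 3 were lower (Gm3055, Gm32687 and Tdg) against 613 genes (4.73%). No member passed at an adjusted p under 0.05 in edgeR's quasi-likelihood test, against 10 genes in all (0.0771%). Both HFD-KO libraries lay above both HFD-WT libraries for 13 tested members and below them for 7, against 20.5% and 20.3% of all genes tested. The median log2 fold change was 0.06 over the members and 0.01 over all genes, and the median size was 0.12 in both. The selection used this contrast, so nothing is read from these counts. Scaled by plain library totals, 345 genes in all were higher and 894 lower, and among the members 1 was higher and 3 lower.

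**Figure D4:**
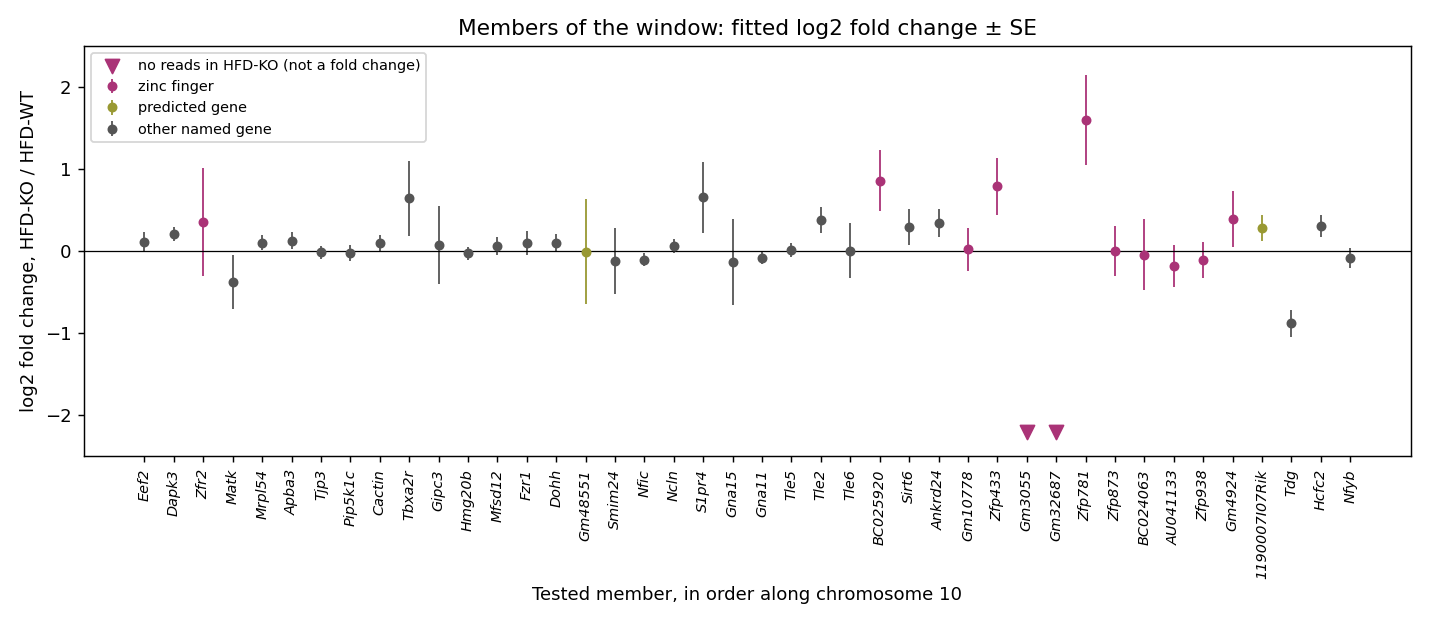
Fitted log2 fold change, HFD-KO over HFD-WT, with its standard error (vertical axis) for the tested members in their order on chromosome 10, coloured by role. Triangles near the lower edge mark Gm3055 and Gm32687, which had no reads in HFD-KO, and their height is not a fold change. Zfp781 (1.60), BC025920 (0.86) and Zfp433 (0.79) lie above and Tdg (-0.88) below most members.

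Among the genes that are not zinc finger genes, Tdg stood apart. It encodes thymine DNA glycosylase, which removes thymine mispaired with guanine and takes part in active DNA demethylation. Tdg had 430 and 298 reads in HFD-WT and 179 and 171 in HFD-KO. Its level was 14.8 and 10.8 CPM in HFD-WT and 6.80 and 7.16 CPM in HFD-KO, without overlap and with a ratio of means of 0.544.

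The fitted log2 fold change of Tdg was -0.88 ± 0.17 (SE), and -0.64 without HFD-WT replicate 1. Tdg starts at 82465662, on the far side of the array, 5.34 Mb from the start of Adarb1. Of its 100-base stretches 22.6% also occur in other genes, the largest share of them in the pseudogene Tdg-ps, none of which the table lists. Its last 367 bases overlap Glt8d2 on the other strand, which had 4 and 1 reads in HFD-WT and 4 and 0 in HFD-KO.

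Members that encode receptors and kinases of blood cells were low in this tissue. Tbxa2r, the thromboxane receptor, had 15 and 11 reads in HFD-WT and 15 and 21 in HFD-KO, with a log2 fold change of 0.64 ± 0.45 (SE). S1pr4, a sphingosine 1-phosphate receptor of lymphocytes, had 14 and 15 reads in HFD-WT and 26 and 15 in HFD-KO (0.66 ± 0.43). Its log2 fold change was 0.29 without HFD-KO replicate 1, the library with the high B and plasma cell markers. The part of these cells in the S1pr4 values was not tested. Matk, a tyrosine kinase of the Csk family, had 35 and 32 reads in HFD-WT and 26 and 20 in HFD-KO (-0.37 ± 0.33). After scaling, the groups of these 3 genes did not overlap, yet each difference was smaller than 2 standard errors. Among all genes tested, HFD-KO lay wholly above HFD-WT for 20.5% and wholly below for 20.3%.

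None of the 10 members with the highest level per length is a zinc finger gene. Eef2, the translation elongation factor that moves the ribosome along mRNA, had a mean of 521 RPKM, and its reads were 47844 and 46544 in HFD-WT and 43983 and 46708 in HFD-KO. Tle5, a short member of the Groucho family of co-repressors, had a mean of 323 RPKM. Mrpl54, a protein of the mitochondrial ribosome, followed at 33.1 RPKM, and Nfic, a transcription factor of the nuclear factor I family, at 18.5 RPKM.

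Then came Gna11, a G protein alpha subunit, at 17.9 RPKM, Ncln, a membrane protein of the endoplasmic reticulum, at 16.9 RPKM, Apba3, an adaptor protein, at 14.3 RPKM, and Hmg20b, a subunit of a complex with the demethylase LSD1, at 13.7 RPKM. Dohh, which completes the hypusine residue of the factor eIF5A, had 9.76 RPKM, and Dapk3, a death-associated protein kinase, 9.74 RPKM. The log2 fold changes of these 10 genes lay between -0.10 for Nfic and 0.21 for Dapk3. The groups overlapped for 6 of the 10, HFD-KO was above HFD-WT for Mrpl54 and Dapk3, and below for Nfic and Gna11. Over all genes tested, both HFD-KO libraries lay above both HFD-WT libraries for 20.5% and below them for 20.3%. Dohh shares 42.9% of its stretches with the predicted gene Gm48551, which overlaps it on the same strand, so that its count is uncertain.

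Of the 28 tested named genes without fingers, 25 had a log2 fold change between -0.5 and 0.5. Tle2, another Groucho co-repressor, had 302 and 228 reads in HFD-WT and 355 and 259 in HFD-KO, with HFD-KO above HFD-WT after scaling (log2 fold change 0.38 ± 0.16, SE). Sirt6, a deacetylase of histones, had 93 and 83 reads in HFD-WT and 88 and 103 in HFD-KO (0.29 ± 0.22). Hcfc2 had 241 and 215 reads in HFD-WT and 239 and 260 in HFD-KO (0.30 ± 0.14), with HFD-KO above HFD-WT after scaling. Sirt6 and Hcfc2 were named after their values were seen, as were the remaining named and predicted members and those that did not pass the filter, except Gm4767.

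Most of the remaining named members differed little between groups. Tjp3, a protein of tight junctions, had 942 and 920 reads in HFD-WT and 871 and 772 in HFD-KO (log2 fold change -0.01 ± 0.08, SE). Pip5k1c, a lipid kinase that makes phosphatidylinositol bisphosphate, was at -0.02 ± 0.09, and Cactin, Mfsd12 and Fzr1, an activator of the anaphase-promoting complex, were at 0.10 ± 0.10, 0.06 ± 0.11 and 0.10 ± 0.14. Gipc3, Smim24, Gna15 and Tle6 had between 7 and 50 reads per library, with log2 fold changes from -0.13 for Gna15 to 0.08 for Gipc3. The groups overlapped for each of these 9 genes.

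Ankrd24, next to the array on its Adarb1 side, had 172 and 172 reads in HFD-WT and 232 and 158 in HFD-KO (log2 fold change 0.34 ± 0.18, SE). The predicted gene 1190007I07Rik, next to Tdg, had 194 and 196 reads in HFD-WT and 245 and 179 in HFD-KO (0.28 ± 0.15). For both, HFD-KO lay above HFD-WT after scaling. Gm48551, the only other predicted gene that was tested, had 15 and 9 reads in HFD-WT and 5 and 16 in HFD-KO, with overlapping groups.

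At the edges of the window the values were close to equal between groups. The first member, Eef2, had a log2 fold change of 0.12 ± 0.12 (SE), and its neighbour outside, the SUMO ligase gene Pias4, had 468 and 474 reads in HFD-WT and 463 and 435 in HFD-KO (0.10 ± 0.09). The last member, Nfyb, a subunit of the factor NF-Y that binds CCAAT, had 604 and 457 reads in HFD-WT and 457 and 431 in HFD-KO (-0.08 ± 0.12). Its neighbour outside, Txnrd1, the cytosolic thioredoxin reductase, had a log2 fold change of -0.06 ± 0.08. At the limit of 1 read, Atcay with 1 read was inside.

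Genes around the window, which the selection did not use, could be tested. Between Adarb1 and the window, 98 of 168 listed genes were tested, of which 4 were higher and 4 lower at an unadjusted p under 0.05. On the other side of Adarb1, over the same 3.75 Mb, 33 of 49 were tested, with 3 higher and 2 lower. Past the far end of the window, 22 of 32 were tested, with 1 higher and 2 lower. No gene in any of these stretches passed at an adjusted p under 0.05 in edgeR's quasi-likelihood test, and the shares at the unadjusted threshold can be read against 4.25% higher and 4.73% lower over all genes.

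The smallest p between Adarb1 and the window belonged to Gadd45b, a stress-inducible gene of DNA repair and demethylation, with 115 and 103 reads in HFD-WT and 269 and 169 in HFD-KO. Its log2 fold change was 1.17 ± 0.21 (SE), with an adjusted p of 0.172 by edgeR. That adjusted p was 0.00621 by edgeR without a filter and 0.00482 by DESeq2. With a library left out, the log2 fold change of Gadd45b lay between 0.87 and 1.40. Cstb, a protease inhibitor, and Trpm2, a calcium channel, followed at -0.41 ± 0.12 and -0.58 ± 0.16, with an adjusted p of 0.369 for both by edgeR, and 0.000532 for Cstb without HFD-KO replicate 1. Past the far end, Timp3, an inhibitor of metalloproteinases, had a log2 fold change of -0.49 ± 0.10 with an adjusted p of 0.233 by edgeR, which was 0.0332 without a filter, 0.00627 without HFD-KO replicate 1 and 0.0361 without HFD-KO replicate 2.

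After Timp3 came the transcription factor gene Rfx4 (0.69 ± 0.20) and the clock gene Cry1 (-0.45 ± 0.16). On the other side of Adarb1 the smallest p values were those of the folate carrier Slc19a1 (-0.54 ± 0.13), the collagen gene Col6a1 (-0.37 ± 0.11) and Derl3 (1.69 ± 0.52), which encodes a protein of degradation at the endoplasmic reticulum. Derl3 had 63 and 175 reads in the HFD-KO libraries, and its log2 fold change was 2.29 without HFD-KO replicate 1 (adjusted p 3.84e-07 by edgeR) and 0.68 without HFD-KO replicate 2 (adjusted p 0.495). Adjusted p values of these 3 were 0.289, 0.400 and 0.409 by edgeR. Slc19a1 passed at 0.0222 without HFD-KO replicate 2, and Col6a1 at 0.0297 without HFD-KO replicate 1.

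Along the chromosome, 651 genes were tested and 59 of them, 9.06%, had an unadjusted p under 0.05 in edgeR's test. Over all genes the count was 1164 of 12967, with 4.25% higher and 4.73% lower. No gene of the chromosome had an adjusted p under 0.05 in that test. In bins of 5 Mb from the start of Adarb1, the 0 to 5 Mb bin held 136 genes, 7 higher and 7 lower (10.3%), with a median log2 fold change of 0.03. The 5 to 10 Mb bin held 31 genes, 1 higher and 3 lower (12.9%), and the bin before Adarb1 held 34 genes, 3 higher and 2 lower (14.7%). Over the 11 bins with at least 20 genes the share was lowest, at 0, between 35 and 40 Mb before Adarb1, and it was highest between 10 and 15 Mb past it. All tested members of the window lie in the 0 to 5 Mb and 5 to 10 Mb bins. The calls of the first of these include Adarb1 itself and the members Gm3055, Gm32687, Dapk3, Tle2 and Zfp781. Those of the second include Tdg. The shares of both bins are therefore not free of the selection, and nothing is read from them.

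**Figure D5:**
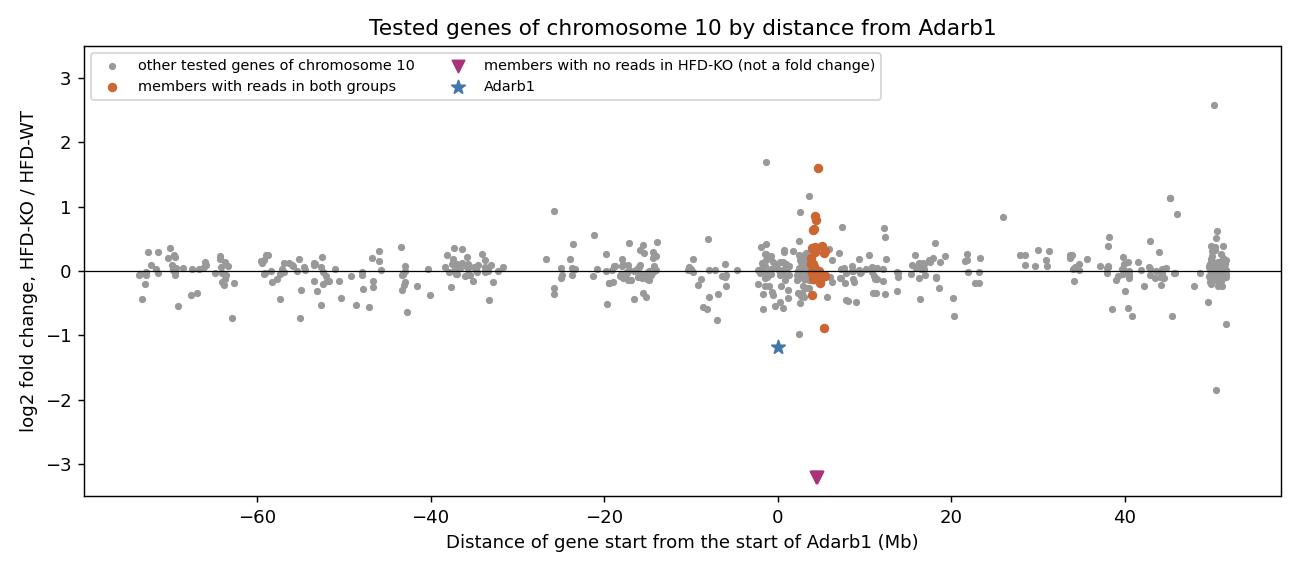
Fitted log2 fold change, HFD-KO over HFD-WT (vertical axis), of the 651 tested genes of chromosome 10 against the distance of their start from the start of Adarb1 in Mb (horizontal axis). Members are in orange, Adarb1 is the blue star at -1.17, and the overlapping triangles near 4.5 Mb mark Gm3055 and Gm32687, which had no reads in HFD-KO and so no fold change.

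Genes for the proteins that KRAB zinc finger proteins work with were tested as a list of 30. Trim28, the co-repressor itself, had 1742 and 1488 reads in HFD-WT and 1486 and 1521 in HFD-KO, with a log2 fold change of 0.07 ± 0.10 (SE) and an adjusted p of 0.863 by edgeR. Setdb1 had 688 and 593 reads in HFD-WT and 583 and 528 in HFD-KO, with a log2 fold change of -0.03 ± 0.09 and an adjusted p of 0.936 by edgeR. The list covers co-repressors, heterochromatin proteins and DNA methyltransferases. Of its 30 tested genes none passed at an adjusted p under 0.05 in edgeR's test, against 0.0771% of all genes. At an unadjusted p under 0.05, 1 gene was higher and none lower, beside shares of 4.25% higher and 4.73% lower over all genes.

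That gene was Chd3, a chromatin remodeller, with a log2 fold change of 0.22 ± 0.09 (SE) and an adjusted p of 0.516 by edgeR. The median log2 fold change of the 30 genes was 0.04 and their median size 0.08, against 0.01 and 0.12 over all genes. Tested members of the array had a median size of 0.29, with Gm3055 and Gm32687, which placed the window, counted in. Nothing is therefore read from this median against the others. Their median level was 1.13 CPM, against 20.2 CPM for the co-repressor list and 14.4 CPM for all genes tested. Gm3055 and Gm32687 had no reads in HFD-KO and so no fold change, and they are not set against that median size. The standard errors of the other 8 ran from 0.22 to 0.55.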

How the data were processed

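Liver RNA libraries of HFD-WT and HFD-KO mice (2 per group) were analysed from the gene table of 25655 genes that the authors deposited. The authors aligned the reads and counted them per GENCODE gene with Partek software. The use of strand, the treatment of reads with several matches and tool versions are not given in the sources used here. The methods and the submitters' processing notes name mm10, the notes also name GRCm39, and the table's positions are those of GRCm39. The deposited counts are whole numbers without normalization and were the values tested. The deposited RPKM values are scaled by length and library total by the authors and served to compare levels between genes. The deposited TPM values and a deposited score headed CPM, scaled by an adjusted library size, were not used. No value column lacked a sample. The total count per library was 24480798 to 28691330. Floors and standard errors cover these libraries, and floors cover counting error only.

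The test was run with edgeR 4.0.16 under R 4.3.3 (filterByExpr, TMM, quasi-likelihood test, two-sided, Benjamini-Hochberg over 12967 genes). CPM values were computed from the counts with TMM. Each standard error is the absolute log2 fold change divided by the square root of the test's F statistic. A multiple of it is a yardstick and not a confidence limit. The alternatives were DESeq2 size factors, plain totals, no filter, DESeq2 1.42.0, each library left out and a replicate block. The procedure was tested on simulated counts. The smallest exact permutation p for 2 against 2 libraries is 0.333, so none was run. The members and all gene lists were chosen with earlier results of these data known. Sequences came from GENCODE M21 transcripts (51 of 51 members matched by Ensembl ID) and RefSeq promoters of GRCm38.p6, and no position was moved between builds. Motifs of the pattern CysX2-4CysX12HisX3-5His were counted in transcripts translated with Biopython 1.88 in Python 3.11.15, since no protein table was used here. The count is that of the open stretch with the most motifs, over the forward reading frames of all transcripts of a gene. Named genes were Adarb1, Gm3055, Gm32687, every zinc finger member (symbol Zfp or at least 3 motifs), the 10 tested members with the largest log2 fold change, the 10 with the highest RPKM, edge genes, members with at least 10 reads all in 1 group, the 3 smallest p values of each flank, Trim28, Setdb1 and co-repressor genes with an unadjusted p under 0.05. Plots were drawn with matplotlib 3.10.9.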

Additional observations from a re-analysis of the deposited data

How the results depend on the processing

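The direction of the Adarb1 difference was kept under all alternatives, and its adjusted p ranged from 3.11e-07 to 0.971. It passed 0.05 without a filter on low counts (log2 fold change -1.18), with DESeq2 (-1.17) and with the replicate block (-1.19). With each library left out the log2 fold change lay between -1.51 and -0.89, and it passed when either HFD-KO library was left out. Members higher at an unadjusted p under 0.05 numbered 3 in the report, 1 with plain library totals, 5 without a filter, 1 with DESeq2 and 0 to 4 with a library left out (0 without HFD-WT replicate 2, 1 without HFD-WT replicate 1). Lower members numbered 3 with each library left out. At an adjusted p under 0.05 there were 0 members in the report, 3 without a filter, 3 with DESeq2 and 0 to 3 with a library left out. The 3 were Gm3055, Gm32687 and Tdg each time, of which the first 2 define the window. With a library left out, the lone library of its group is assumed to vary like those of the other group.

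Around the window, genes at an adjusted p under 0.05 numbered 0 in the report, 2 without a filter, 1 with DESeq2 and 0 to 15 with a library left out (15 without HFD-KO replicate 1, 6 without HFD-KO replicate 2). At an unadjusted p under 0.05, 3 to 17 were higher and 6 to 15 lower with a library left out, against 8 and 8. Co-repressor genes higher at an unadjusted p numbered 1 in the report, 0 with plain totals, DESeq2 or the replicate block, and 0 to 2 with a library left out. With plain totals 1 was lower. Over all genes, 345 were higher and 894 lower with plain totals, and 298 higher and 373 lower with DESeq2, against 551 and 613. With a library left out the counts were 255 to 1095 and 207 to 1078. At an adjusted p under 0.05 there were 6 genes with plain totals, 162 without a filter, 115 with DESeq2, 20 with the replicate block and 0 to 705 with a library left out, against 10. The larger counts came without HFD-KO replicate 1 (705) and without HFD-KO replicate 2 (411). The cause of these shifts was not tested.

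The replicate numbers occur in both groups, and the correlation of deviations between same-numbered libraries was -0.087, so the numbers were not taken as pairs. The block changed no call among the members at an adjusted p under 0.05. The summed zinc finger ratio stayed between 0.906 and 0.991 with a library left out. The least fold was 4.64 to 8.22 for Gm3055 and 9.28 to 15.6 for Gm32687 with a library left out. Among the named members the widest ranges with a library left out were -0.36 to 1.27 for Zfr2 and 0.93 to 2.04 for Zfp781. At this depth the 9 members with 1 to 29 reads in all were not tested.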
